A study of Mus musculus with 42 samples.

Results

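The 8 genes described here, Cd36, Fabp4, Fabp5, Gpihbp1, Lpl, Meox2, Tcf15 and Acsl1, were chosen by name for their roles in the uptake of fatty acids by endothelium, and all 8 were found among the 21674 genes of the deposited table. Each was followed through the RNA-seq libraries of mouse carotid intima and of cultured aortic endothelial cells. Intimal RNA was flushed from carotid arteries after partial ligation of the left carotid artery, which lowers and disturbs its flow. The contralateral artery served as the high-flow side and sham-operated arteries as normal flow, and each intimal library is a pool of 3 to 5 arteries. Untreated male C57BL/6J mice of 6 to 7 weeks gave 3 low-flow, 3 high-flow and 3 sham libraries at 48 hr, called a, b and c. In the depletion experiment, also at 48 hr and in C57BL/6J mice, there were 2 libraries for each of 7 groups, and the numbers 1 and 2 name them. These were low and high flow with control IgG, low and high flow with PBS liposomes, and low flow with the platelet-depleting antibody against GPIba, with the granulocyte-depleting antibody against Gr1 or with macrophage-depleting clodronate liposomes. A single earlier library of low flow with PBS liposomes and 1 with clodronate liposomes were read at 100 bp. At 7 d, mice of 2 to 7 months and both sexes on a C57 background lacked Rbfox2 in endothelium (EC-KO: Cdh5(PAC)-CreERT2, Rosa26-mTmG and floxed Rbfox2, where the Cdh5 promoter drives an inducible Cre in endothelial cells) or were littermate controls that carried the same reporter and floxed alleles without Cre. Low flow had 3 libraries of each genotype, numbered 1, 4 and 5, and high flow had 2 of each, numbered 4 and 5. In culture, 1 library each came from sorted primary cells (eGFP+ Cdh5(PAC)CreERT2 mTmG+ cells, Rbfox2 control and Rbfox2 EC-KO) and from a single TetOn-SV40 immortalized line, sorted on eGFP from mice of the first of these genotypes, with the SV40 gene switched off, left untreated or given 10% plasma, platelets and macrophages, or all of these.

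Long-chain fatty acids reach tissue either bound to albumin or inside triglyceride-rich lipoproteins. At the capillary wall the enzyme lipoprotein lipase (Lpl), made by adipocytes, myocytes and macrophages, is held on the luminal side by the endothelial anchor protein Gpihbp1 and releases fatty acids from triglyceride. The scavenger receptor Cd36 takes them across the membrane, the binding proteins Fabp4 and Fabp5 carry them through the cytosol, and the synthetase Acsl1 couples them to coenzyme A. Meox2 and Tcf15 are transcription factors that act as a pair in capillary endothelium of heart and muscle, where they raise Cd36, Lpl and other uptake genes. Fabp4, Cd36, Lpl and Acsl1 are also abundant in adipocytes, and in bulk RNA fewer cells of a type and less RNA per cell cannot be told apart.

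On mm9 the 2 binding protein genes are neighbours on chromosome 3, Fabp5 at chr3:10012548-10016607 on the plus strand and Fabp4 at chr3:10204347-10208576 on the minus strand, with 187739 bases between them. Lpl lies at chr8:71404390-71431347 and Acsl1 at chr8:47556395-47621405, Cd36 at chr5:17287508-17394777, Gpihbp1 at chr15:75427088-75428642, Meox2 at chr12:37835127-37908372 and Tcf15 at chr2:151969297-151974833. The 200 bases before the annotated start (mm9 genome, NCBIM37, with GENCODE M1 starts) are shown for Fabp5, which was higher at low flow in the 3 comparisons at 48 hr, and for Lpl and its anchor Gpihbp1. Capitals mark matches to the motifs searched.

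Fabp5: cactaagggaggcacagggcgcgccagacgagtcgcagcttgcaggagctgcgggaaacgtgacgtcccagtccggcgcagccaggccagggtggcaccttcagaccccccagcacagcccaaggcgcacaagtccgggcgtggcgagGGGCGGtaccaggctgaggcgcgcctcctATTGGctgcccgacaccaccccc

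Lpl: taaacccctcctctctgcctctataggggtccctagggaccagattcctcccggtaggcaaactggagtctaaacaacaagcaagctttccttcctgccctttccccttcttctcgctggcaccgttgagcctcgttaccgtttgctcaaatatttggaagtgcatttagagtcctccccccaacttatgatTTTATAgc

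Gpihbp1: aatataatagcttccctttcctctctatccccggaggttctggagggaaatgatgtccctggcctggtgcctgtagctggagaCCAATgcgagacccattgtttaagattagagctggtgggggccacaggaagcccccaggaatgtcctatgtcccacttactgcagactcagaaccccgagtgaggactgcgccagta

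These are chr3:10012348-10012547, chr8:71404190-71404389 and chr15:75426888-75427087, in that order, all on the plus strand and written 5′ to 3′. Motifs were searched on both strands, and positions count back from the start. The Fabp5 window holds an inverted CCAAT box (ATTGG) at -23 and a GC box (GGGCGG) at -52. The Lpl window has an inverted TATA box (TTTATA) at -8, and the Gpihbp1 window a CCAAT box at -117. None of these 3 windows holds an E-box (CANNTG), the nuclear receptor motif AGGTCA or the homeobox motif TAATTA. Of 22235 promoters of the same length, 54.6% hold CANNTG, 30.6% CCAAT, 38.6% GGGCGG, 10.1% TATAAA, 10.0% AGGTCA and 3.43% TAATTA. G and C make up 70.5% of the Fabp5 window, 50.0% of the Lpl window and 54.0% of the Gpihbp1 window.

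The authors deposited expected counts per gene, and levels are given here as FPKM, the count per kilobase of effective gene length and scaled to a common library total. Libraries held 4064477 to 6794904 counts in the untreated experiment, 12286104 to 19035957 in the depletion experiment, 10318685 to 18633538 at 7 d, 5223017 and 5901210 in the 100 bp pair and 4989843 to 16394043 in culture. All 12 endothelial marker genes were detected in every library. Their summed level was 4878 to 18476 CPM (counts scaled to a common library total) in the 35 intimal libraries and 4186 to 6257 in the 3 primary cultures, but only 296 to 373 in the 4 libraries of the immortalized line, far below the endothelial markers of the primary cells. Low-flow libraries a and b of the untreated mice stood apart, with 10.6% and 10.1% of counts on Actb against 3.74% in library c and at most 1.5% in the sham and high-flow libraries. Their TMM scaling factors, by which edgeR corrects library totals, were 0.632 and 0.607 against 1.23 to 1.31 in the other libraries of the low-high fit, low-flow library c with 1.24 included. Because of this, a fitted log2 fold-change and a ratio of FPKM differ in these comparisons. On library totals alone the median of all genes was -0.69 for low against high flow, in place of -0.07 with TMM. The study describes its intimal replicates as biological, and the p-values rest on the spread between these pools.

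Fabp4 had the highest median of the members in the intima, 108 FPKM over 35 libraries and a range of 8.04 to 3094. Fabp5 was steadier, with a median of 37.4 FPKM and a range of 10.8 to 159. Lpl spread more widely than Fabp4, with a median of 6.23 (range 0.182 to 108, or 592-fold against 385-fold), Acsl1 of 4.81 (2.28 to 23.9) and Cd36 of 4.31 (0.677 to 59.9). By their medians the members therefore ran in the order Fabp4, Fabp5, Lpl, Acsl1, Cd36, Gpihbp1, Meox2 and Tcf15, and the ranges of all neighbours in this order overlapped. The anchor gene Gpihbp1 was near the limit of these libraries, with a median of 0.341 FPKM, no count in 8 of 35 libraries and at most 3 counts in 17. Meox2 had at most 3 counts in 12 libraries (median 0.251 FPKM, highest 1.5), and Tcf15 in 27 (median 0.113, highest 0.766). A count of 0 allows up to 3 counts, and these limits cover counting error only. Fabp5 has processed copies elsewhere in the mouse genome, so that its reads may be split between loci.

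**Figure D1:**
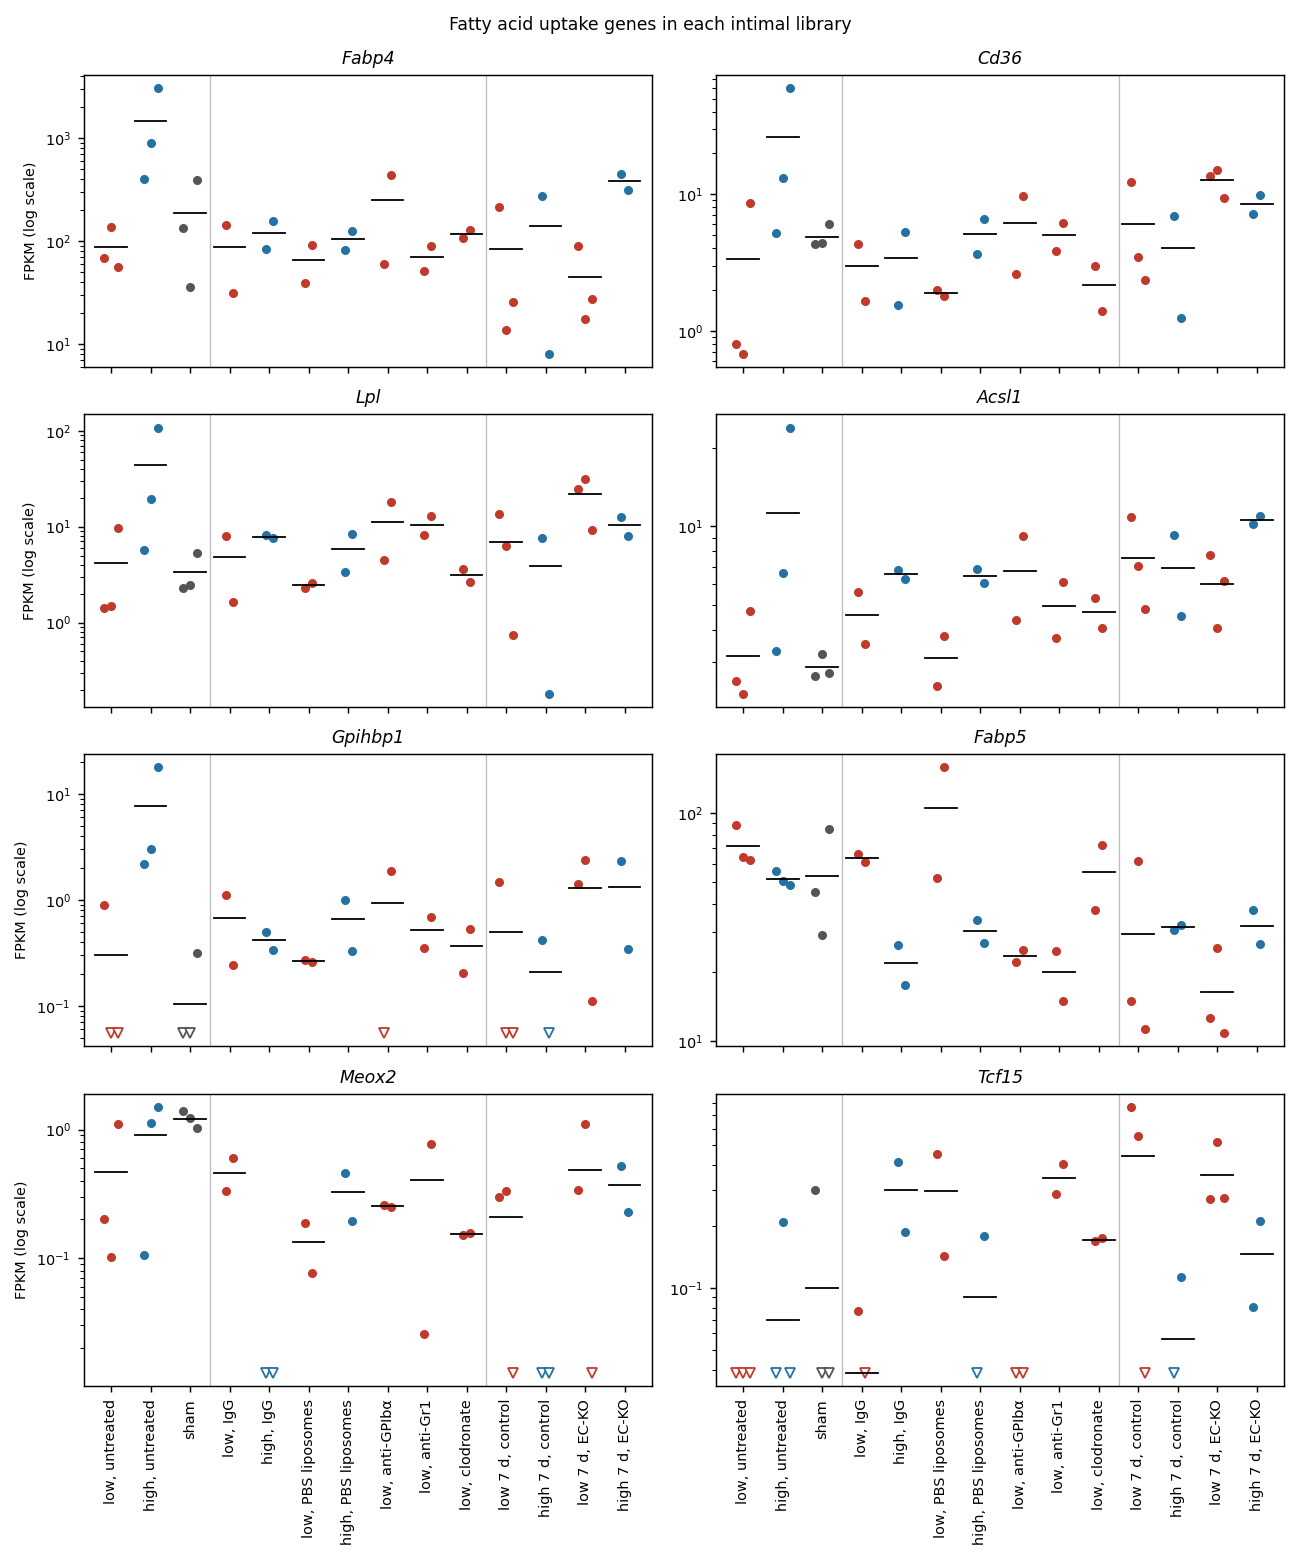
FPKM of the members (log scale) in 33 intimal libraries, without the 100 bp pair, by group. Red points are low flow, blue points high flow and grey points sham, lines are group means and open triangles stand for libraries without a count. Fabp4, Cd36 and Lpl reach their highest levels, 3094, 59.9 and 108 FPKM, in high-flow library c of the untreated mice.

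The first comparison asked how the genes differed between low and high flow 48 hr after ligation. Fabp4, Lpl and Cd36 were lower at low flow and Fabp5 was higher, while Acsl1 and Meox2 did not pass the test. Fabp4 was at 69.0, 138 and 56.5 FPKM at low flow (libraries a, b and c) and at 405, 898 and 3094 at high flow. Every high-flow library lay above every low-flow library, and the log2 fold-change was -3.17 (SE 0.73, adjusted p = 0.00526 by edgeR's quasi-likelihood test with Benjamini-Hochberg adjustment). Lpl was at 1.43, 1.5 and 9.63 FPKM at low flow and at 5.71, 19.2 and 108 at high flow, for a log2 fold-change of -2.96 (SE 0.87, adjusted p = 0.0177 by edgeR). Here low-flow library c was above high-flow library a, so that the groups overlapped. The receptor gene Cd36 had 0.796, 0.677 and 8.55 FPKM at low flow and 5.15, 13.0 and 59.9 at high flow, with the same overlap of these 2 libraries and a log2 fold-change of -2.55 (SE 0.83, adjusted p = 0.028 by edgeR). Fabp5, the binding protein gene beside Fabp4, had 88.9, 64.3 and 62.4 FPKM at low flow and 55.4, 50.4 and 48.1 at high flow. The groups did not overlap, and the log2 fold-change was 1.29 (SE 0.31, adjusted p = 0.0067 by edgeR). The call was also made with DESeq2 (1.36), RLE factors (1.35) and scaling on endothelial markers (1.57), but not on library totals (0.48, adjusted p = 0.37 by edgeR).

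Among the others, the synthetase gene Acsl1 had 2.55, 2.28 and 4.73 FPKM at low flow and 3.32, 6.62 and 23.9 at high flow, for a log2 fold-change of -1.17 (SE 0.55, adjusted p = 0.105 by edgeR). Meox2 had 0.2, 0.102 and 1.11 FPKM at low flow and 0.106, 1.12 and 1.5 at high flow (log2 fold-change -0.39, SE 0.70, adjusted p = 0.677 by edgeR), which are 1 to 15 counts per library and groups that overlap. The filter on low counts removed Gpihbp1 and Tcf15. Gpihbp1 had 4, 0 and 0 counts at low flow and 6, 12 and 53 at high flow, equal to 2.16, 3.02 and 17.9 FPKM. Every high-flow library was above every low-flow library. Gpihbp1 was tested in 3 alternatives only, at -3.61 without the filter (SE 0.83, adjusted p = 6.08e-04 by edgeR), -3.99 without high-flow library a (adjusted p = 0.0185 by edgeR) and -3.30 without low-flow library b (adjusted p = 0.0803 by edgeR). Tcf15 had 0 or 1 count in each of the 9 untreated libraries. In all, 4 of the 6 members tested were called, against 46.2% of all 11236 genes tested. In this comparison 23.6% of all genes were called higher and 22.6% lower, and of the members 1 was higher and 3 were lower. The median log2 fold-change was -1.86 over the 6 members and -0.07 over all genes. High-flow library c carried much of the size of these differences. Without it Fabp4 was at -2.03 (adjusted p = 0.0113 by edgeR), while Lpl was at -1.16 (adjusted p = 0.104 by edgeR) and Cd36 at -1.08 (adjusted p = 0.184 by edgeR), and both also missed the threshold without low-flow library a or b, as did Cd36 with DESeq2 (-2.65, adjusted p = 0.058). Acsl1 was at -0.03 without high-flow library c, and was called without high-flow library a (-1.54, adjusted p = 0.0202 by edgeR), on library totals and without the filter.

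The same high-flow libraries held the most RNA of fat cell genes. The summed level of 11 adipocyte markers was 15.2, 27.7 and 29.8 CPM at low flow, 134, 50.7 and 289 in sham arteries and 337, 913 and 2970 at high flow, so that low and high flow did not overlap. The filter on low counts left 7 of the 11 adipocyte markers and 5 of 8 brown adipocyte markers to test. All of these were lower at low flow, the adipocyte markers at a median of -5.54 on the log2 scale. A marker can pass this filter through its high-flow counts alone, which favours calls in this direction. Plin1 had no count in low-flow libraries a and b or sham libraries a and b, and Adrb3 in any untreated library other than high-flow libraries b and c, which had counts for all 11. Macrophage markers went the other way, with 2413 to 3518 CPM at low flow and 96.5 to 217 at high flow, and 12 of 14 were called higher. Neutrophil markers did so as well (250 to 501 CPM against 7.05 to 21). The filter left 7 of 9 of them to test, all higher, and it can favour that direction through low-flow counts. The smooth muscle sum was also higher at low flow (2326 to 4305 against 527 to 622, with 3 of 6 higher). The fibroblast sum was 444 to 1165 CPM at low flow and 1897 to 2493 at high flow, with 3 of 8 lower. Endothelial markers were 4878 to 6290 CPM at low flow and 10434 to 12016 at high flow (3 of 12 called higher and 3 lower). The part of these other cell types in the member differences was not tested. When the adipocyte sum was added to the fit as a covariate, an alternative chosen after the data were seen, Fabp4 turned to 1.84 (adjusted p = 0.625 by edgeR), Cd36 to 4.27 (adjusted p = 0.111 by edgeR) and Lpl to 5.01 (adjusted p = 0.0278 by edgeR). Acsl1 turned to 3.64 (adjusted p = 0.0536 by edgeR), and Fabp5 dropped to 0.24 and lost its call (adjusted p = 0.944 by edgeR). Over all genes this fit called 175 of 11236 in place of 5195. The covariate does not overlap between the groups, so such a fit extrapolates and the part of fat cell RNA in these differences cannot be told apart from that of flow here.

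Against sham arteries the picture differed. Sham libraries had 133, 36.1 and 390 FPKM of Fabp4, 4.28, 4.36 and 6.03 of Cd36, and 2.31, 2.46 and 5.25 of Lpl, each overlapping with low flow. Of 6 members tested for low flow against sham, only Acsl1 was called, against 40.3% of all genes (20.6% higher and 19.7% lower). Acsl1 had 2.66, 3.22 and 2.73 FPKM in sham arteries, and its log2 fold-change at low flow was 0.83 (SE 0.19, adjusted p = 0.0115 by edgeR), with groups that overlap in FPKM. It fell to 0.15 on library totals (adjusted p = 0.839 by edgeR) and to 0.78 without sham library a (adjusted p = 0.0531 by edgeR). Fabp5 had 44.8, 29.0 and 85.2 FPKM in sham arteries, and its log2 fold-change of 1.27 at low flow (SE 0.46, adjusted p = 0.0525 by edgeR) missed the threshold. Without low-flow library c it was 1.61 (adjusted p = 0.0149 by edgeR), and without sham library c 1.86 (adjusted p = 0.0102 by edgeR). For high flow against sham edgeR called none of the 6 members and 0% of all genes, although before adjustment 4 members and 868 of 11030 genes were under 0.05. With DESeq2 the calls were 0 members and 91 genes, and without the filter edgeR called Lpl (3.74, adjusted p = 0.0416) and Gpihbp1 (5.64, adjusted p = 0.0419). The log2 fold-changes at high flow were 3.72 for Lpl (SE 0.92, adjusted p = 0.324 by edgeR), 2.97 for Fabp4 (SE 0.88, adjusted p = 0.362 by edgeR), 2.42 for Cd36 (SE 0.72) and 2.00 for Acsl1 (SE 0.59), the last both with an adjusted p of 0.362 by edgeR. For Fabp4, Lpl and Acsl1 every high-flow library lay above every sham library. Without high-flow library c the differences were 1.93 for Lpl, 1.83 for Fabp4, 0.94 for Cd36 and 0.86 for Acsl1. The adipocyte sums of these groups were 337 to 2970 and 50.7 to 289 CPM.

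**Figure D2:**
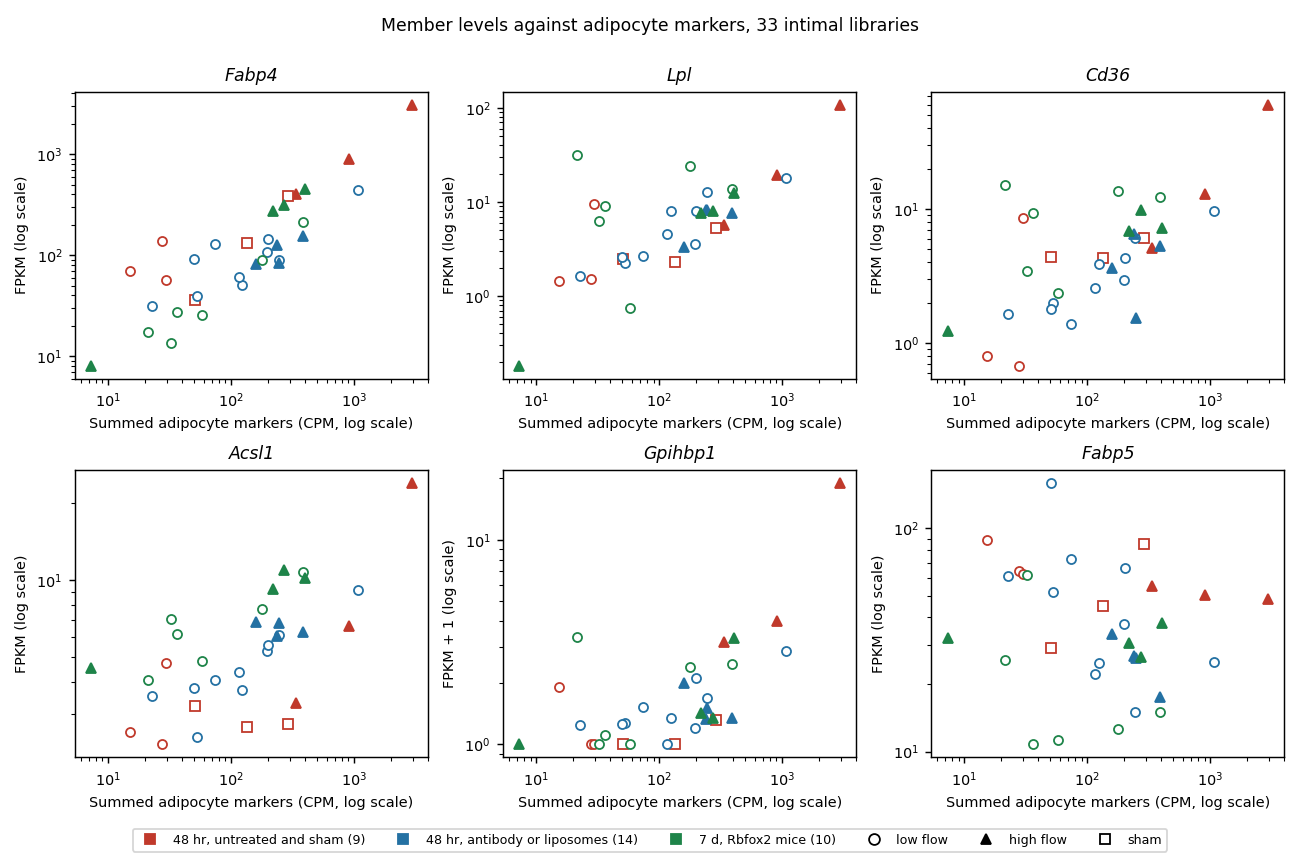
FPKM of 6 members (FPKM + 1 for Gpihbp1) against the summed CPM of 11 adipocyte markers in 33 intimal libraries, both on log scales. Colours give the experiment and symbols the flow. Fabp4 climbs with the marker sum in all 3 experiments (Pearson r 0.93, 0.82 and 0.96), and Fabp5 does not (r -0.18 over all 33).

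Across the 33 libraries of the 3 intimal experiments, log2(FPKM + 1) of each member was correlated with the log of the summed markers of adipocytes, macrophages and endothelium, 21 relations in all without Tcf15. These are 2-sided permutation tests adjusted by Benjamini-Hochberg. The permutations ran over all 33 libraries and ignored experiment and group, so their p-values also reflect differences between experiments and groups. Fabp4 followed the adipocyte sum most closely, with Pearson's r of 0.87 (permutation p = 1e-05, the smallest that 100000 permutations can give, adjusted 2.10e-04) and Spearman's rho of 0.84 (permutation p = 1e-05, adjusted 2.10e-04). Without the 2 libraries farthest from the median r was 0.80, and within the untreated, depletion and 7 d experiments it was 0.93, 0.82 and 0.96. Lpl had an r of 0.67 and a rho of 0.58 (permutation p = 2.00e-05 and 5.50e-04, adjusted 2.10e-04 and 0.00256), and r was 0.49 without the 2 libraries and 0.83, 0.88 and 0.45 within experiments. Cd36 had an r of 0.63 and a rho of 0.56 (permutation p = 1.00e-04 and 9.30e-04, adjusted 4.20e-04 and 0.00325), 0.48 without the 2 libraries and 0.85, 0.80 and 0.53 within experiments. Acsl1 had an r of 0.65 and a rho of 0.60 (permutation p = 6.00e-05 and 4.00e-04, adjusted 3.15e-04 and 0.00256), 0.58 without the 2 libraries and 0.75, 0.87 and 0.90 within experiments. For Gpihbp1, which had few counts, r was 0.64 and rho 0.60 (permutation p = 4.00e-05 and 3.20e-04, adjusted 2.80e-04 and 0.00256), with 0.49 without the 2 libraries and 0.81, 0.60 and 0.46 within experiments.

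Fabp5 and Meox2 showed no such relation with the fat cell genes. Fabp5 had an r of -0.18 and a rho of -0.22 with the adipocyte sum (permutation p = 0.311 and 0.208, adjusted 0.363 and 0.292), with -0.27 without the 2 farthest libraries and -0.23, -0.64 and -0.13 within experiments. Against the endothelial sum Fabp5 had an r of -0.47 and a rho of -0.45 (permutation p = 0.00626 and 0.00875, adjusted 0.0188 and 0.0262). It was -0.39 without the 2 farthest libraries and -0.68 and -0.77 within the untreated and depletion experiments, but 0.23 at 7 d, so it did not hold there. Acsl1 rose with the endothelial sum, with an r of 0.52 and a rho of 0.58 (permutation p = 0.00176 and 6.10e-04, adjusted 0.00616 and 0.00256), 0.44 without the 2 farthest libraries and 0.41, 0.74 and 0.45 within experiments. Fabp4 and the macrophage sum gave an r of -0.41 and a rho of -0.33 (permutation p = 0.0184 and 0.0585, adjusted 0.0482 and 0.107), -0.47 without the 2 farthest libraries and -0.52, -0.35 and -0.45 within experiments. The remaining relations with these 2 sums had adjusted values of 0.0761 or more. For Fabp5 and the macrophage sum r was 0.24 and rho 0.24 (permutation p = 0.189 and 0.17, adjusted 0.306 and 0.255), 0.16 without the 2 farthest libraries and 0.58, 0.45 and -0.14 within experiments. Meox2 and the adipocyte sum gave an r of 0.20 and a rho of 0.15 (permutation p = 0.262 and 0.408, adjusted 0.324 and 0.476), -0.03 without the 2 libraries and 0.45, -0.15 and 0.07 within experiments.

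The genes most like each member over the 35 intimal libraries, by Pearson's r of log2(FPKM + 1) among 10895 genes with a median of at least 1 FPKM, were found by the same rule for all 8, and are a description. Fabp4 was closest to Apoc1 (0.93), Adig (0.92) and Cox8b (0.91). Adig is a gene of adipocytes and Cox8b of brown fat and heart. Cd36 and Lpl were closest to each other (0.89), and next to both came Pparg, the regulator of fat cell formation (0.81 and 0.84), and Tmem45b (0.78 and 0.77). Acsl1 was closest to Gpd1 (0.89), Ces1d (0.84) and Scd1 (0.82), the last a fatty acid desaturase. Gpihbp1 was closest to Mrap (0.77), Cox7a1 (0.75) and Adig (0.73). None of these was near Fabp5, for which the list held Cda (0.87), 2700094K13Rik (0.87) and Atp5g3 (0.85), the last a subunit of mitochondrial ATP synthase. Meox2 was closest to Stk38l (0.74), Ccnt1 (0.70) and Zfp263 (0.69), and Tcf15 to Sema7a (0.63), Ccdc159 (0.63) and Rrad (0.62). Between Fabp4 and Fabp5 r was 0.22.

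The flow comparison was available again in the controls of the depletion experiment. There Fabp5 was higher at low flow with either control, Meox2 was higher with IgG only, and the other members tested did not pass the test. Whether Meox2 differed between the controls was not tested. With IgG, Fabp5 was at 66.2 and 61.2 FPKM at low flow and at 26.4 and 17.6 at high flow, for a log2 fold-change of 1.45 (SE 0.48, adjusted p = 0.0327 by edgeR). With PBS liposomes it was at 51.6 and 159 FPKM at low flow and at 33.8 and 26.9 at high flow, for a log2 fold-change of 1.89 (SE 0.49, adjusted p = 0.0121 by edgeR). In both pairs every low-flow library was above every high-flow library. Other cell types moved with it. Macrophage markers summed to 2801 and 2502 CPM at low flow and 178 and 455 at high flow with IgG (12 of 14 higher), and to 1466 and 2442 against 217 and 308 with PBS liposomes (10 of 14 higher). Smooth muscle markers summed to 4371 and 4724 against 509 and 766 CPM with IgG and to 5887 and 3024 against 485 and 924 with PBS liposomes, with 2 of 8 higher in each. Endothelial markers summed to 6765 and 5536 CPM against 18442 and 18476 with IgG and to 5263 and 5243 against 14172 and 11030 with PBS liposomes. Neutrophil markers summed to 137 to 389 against 4.56 to 52.3 CPM with IgG and to 115 to 342 against 8.09 to 15.9 with PBS liposomes, with 6 of 9 higher in each. Fibroblast markers summed to 853 to 1191 against 2384 to 2585 CPM (4 of 8 lower) and to 677 to 840 against 2197 to 2258 (3 of 8 lower). The part of these cells in Fabp5 was not tested. Leaving out any 1 of the 4 IgG libraries ended the IgG call (adjusted p = 0.0698 to 0.16 by edgeR, values of 1.22 to 1.75). The PBS call was lost without high-flow library 1 or 2 or low-flow library 2 (values of 0.89 to 2.09, adjusted p up to 0.183 by edgeR) and kept without low-flow library 1. With the PBS groups fitted alone Cd36 (-1.35, adjusted p = 0.0345 by edgeR) and Acsl1 (-0.98, adjusted p = 0.0459 by edgeR) were called lower. In the file headers the read files of the low-flow libraries of this experiment carry another leading number than those of the high-flow libraries, and what that number marks cannot be told apart from flow.

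Fabp4 was at 145 and 31.6 FPKM at low flow and 84.6 and 156 at high flow with IgG, and at 39.4 and 92.7 against 82.6 and 126 with PBS liposomes. In both cases the groups overlapped, and the log2 fold-change was -0.55 (SE 0.83) in each. With PBS liposomes Cd36 was at 2.0 and 1.79 FPKM at low flow and 3.65 and 6.55 at high flow (log2 fold-change -1.31, SE 0.74, adjusted p = 0.187 by edgeR). Acsl1 was at 2.44 and 3.8 FPKM at low flow against 6.86 and 6.04 (log2 fold-change -0.94, SE 0.41, adjusted p = 0.0959 by edgeR), and was at 0.21 when libraries were scaled on endothelial markers, which moved the median of all genes to 1.19. Lpl was at 2.27 and 2.6 FPKM against 3.35 and 8.29. For these 3 genes the PBS groups did not overlap, whereas with IgG Cd36 (4.31 and 1.64 against 1.54 and 5.26 FPKM) and Lpl (7.94 and 1.63 against 8.13 and 7.6) did. The adipocyte sums were 22.6 to 201 CPM at low flow and 247 to 388 at high flow with IgG, and 50.2 to 52.8 and 159 to 239 with PBS liposomes.

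Meox2 was the second member called with IgG. It had 12 and 25 counts at low flow (0.33 and 0.596 FPKM) and none in either high-flow library, which makes it at least 4.39-fold higher at low flow when 3 counts in each high-flow library are taken as the floor (adjusted p = 0.0265 by edgeR). With PBS liposomes it was at 0.189 and 0.0764 FPKM at low flow and 0.459 and 0.193 at high flow, the opposite order, and was not called. The call was lost without either high-flow library or without low-flow library 2 (adjusted p = 0.0947 to 0.103 by edgeR). In counts, 2 of the 7 members tested were called with IgG, both higher, against 40.5% of all genes (22.8% higher and 17.7% lower), and 1 of 7 with PBS liposomes, also higher, against 35.0% (19.6% higher and 15.5% lower). The median log2 fold-change of the 7 members was -0.30 with IgG and -1.14 with PBS liposomes, beside 0.07 and 0.06 over all genes. Neither share is above that of all genes. Striated muscle markers summed to 6.51 to 17.3 CPM at low flow and 0.294 to 1.22 at high flow with IgG, with 2 of 5 tested higher. With PBS liposomes they summed to 3.8 to 7.8 against 1.8 to 4.61 CPM, with 0 of 5 called. Their part in the Meox2 levels was not tested.

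**Figure D3:**
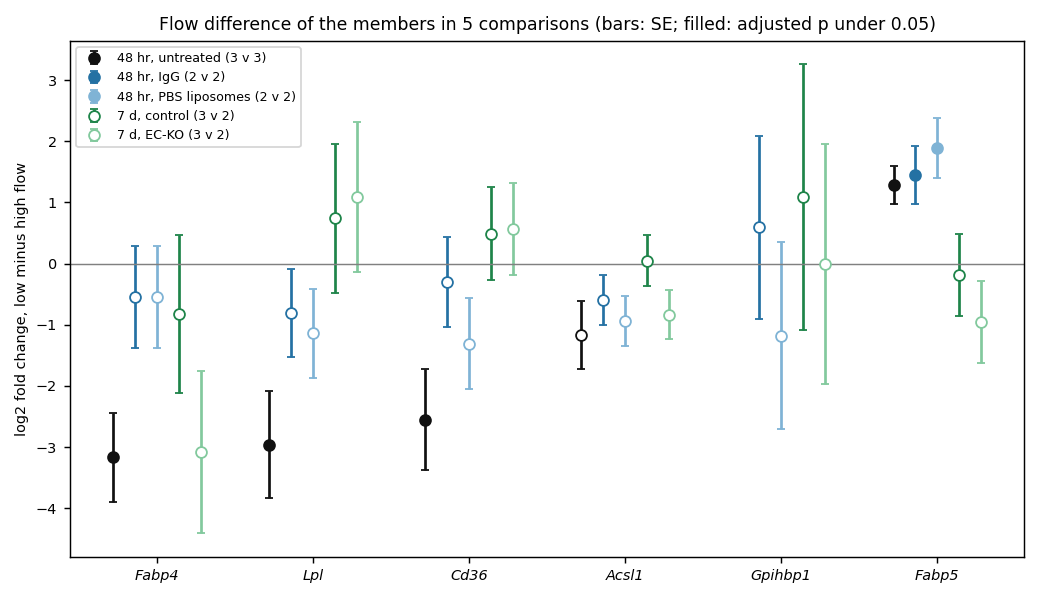
Log2 fold-change of 6 members between low and high flow in the 5 flow comparisons, as fitted by edgeR. Bars are standard errors and filled points have an adjusted p under 0.05. Fabp5 lies above 0 in the 3 comparisons at 48 hr (1.29, 1.45 and 1.89) and at -0.19 and -0.96 at 7 d, and Gpihbp1 has no point where it was not tested.

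The depletion libraries asked whether the members depend on recruited blood cells. None of the 7 members tested was called when platelets, granulocytes or macrophages were depleted at low flow, and the values nearest to a call were those of Fabp5. With the antibody against GPIba, Fabp5 was at 22.2 and 25.1 FPKM, below both IgG low-flow libraries (66.2 and 61.2), a log2 fold-change of -1.46 (SE 0.48, adjusted p = 0.0569 by edgeR). The call was made with DESeq2, with the 2 groups fitted alone (-1.41, adjusted p = 0.00394 by edgeR) and with the replicate block (-1.46, adjusted p = 0.0498 by edgeR). With the antibody against Gr1, Fabp5 was at 24.9 and 15 FPKM, also below both IgG libraries, a log2 fold-change of -1.67 (SE 0.48, adjusted p = 0.243 by edgeR). With clodronate liposomes it was at 37.4 and 72.7 FPKM against 51.6 and 159 with PBS liposomes, which overlap (-1.02, SE 0.47, adjusted p = 0.338 by edgeR), and without PBS library 2 the difference was -0.02. The earlier 100 bp pair had 157 FPKM of Fabp5 with PBS liposomes and 78.0 with clodronate liposomes, with 1 library each and no test.

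The percentages of all genes called were 16.5% for platelet depletion, 0% for granulocyte depletion and 0.119% for macrophage depletion. For the 2 comparisons with the fewest calls, before adjustment 1 and 0 of the 7 members and 2432 and 2002 of 13401 genes were under 0.05. DESeq2 made 171 and 462 calls, with 1 member, Fabp5, for granulocytes and 0 for macrophages. For platelets 1 of the 7 members and 4912 of 13401 genes had an unadjusted p under 0.05. Fabp4 was at 60.4 and 438 FPKM after platelet depletion, 51.0 and 90.0 after granulocyte depletion and 108 and 129 after macrophage depletion, with 272 and 299 in the PBS and clodronate libraries of the 100 bp pair. The 438 FPKM came from platelet-depleted library 2, which also had the highest Cd36 (9.66 FPKM), Lpl (18), Acsl1 (9.14) and Gpihbp1 (1.86) of the depletion experiment and the highest adipocyte sum (1071 CPM, against 116 in library 1). The scarce members had few counts in these groups. Gpihbp1 had 0 to 22 counts and Meox2 1 to 27, and Tcf15, which the filter removed, had at most 6. Over the 7 members the median log2 fold-change was 0.54 for platelets, -0.16 for granulocytes and 0.25 for macrophages, beside -0.04, 0.00 and -0.02 over all genes. Macrophage markers were 2502 and 2801 CPM with IgG at low flow, 289 and 369 after platelet depletion and 1377 and 1579 after granulocyte depletion, and 1466 and 2442 with PBS liposomes against 309 and 311 after macrophage depletion. After platelet depletion endothelial markers were at 11824 and 11832 CPM (5536 and 6765 with IgG) and smooth muscle markers at 724 and 1024 (4371 and 4724 with IgG). The part of these markers in the Fabp5 levels was not tested.

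At 7 d the members were compared between Rbfox2 EC-KO and control intima. No member was called in either artery, and the low-flow arteries of both genotypes varied widely. Fabp4 at low flow was at 213, 13.6 and 25.5 FPKM in control libraries 1, 4 and 5 and at 90.5, 17.5 and 27.5 in EC-KO libraries 1, 4 and 5. Library 1 of both genotypes was the highest, and it also had the highest adipocyte sum of its group (389 CPM in control and 178 in EC-KO, against 32.6 and 58.1 and 21.3 and 36.4). Cd36 was at 12.3, 3.47 and 2.36 FPKM in control and at 13.6, 15 and 9.31 in EC-KO at low flow, a log2 fold-change of 1.11 with a 95% interval of -0.21 to 2.43 (adjusted p = 0.692 by edgeR). Lpl was at 13.6, 6.23 and 0.744 FPKM against 24.4, 31.7 and 9.15, a log2 fold-change of 1.72 with an interval of -0.41 to 3.86 (adjusted p = 0.698 by edgeR). In both genes each EC-KO library was above the control library of the same number, though the groups overlapped and no label states that these numbers are pairs. With 1 library left out in turn the values ran from 0.75 to 2.13 for Cd36 and from 1.2 to 2.67 for Lpl, highest in both without control library 1. Macrophage markers summed to 581, 2067 and 453 CPM in control libraries 1, 4 and 5 and to 1149, 2052 and 1441 CPM in EC-KO libraries 1, 4 and 5, and their part in Cd36 and Lpl was not tested. Fabp5 had 15, 61.7 and 11.3 FPKM in control and 12.6, 25.6 and 10.8 in EC-KO, and Acsl1 had 10.8, 7.06 and 4.81 against 7.73, 4.07 and 6.17. EdgeR called 0% of genes in this comparison, although before adjustment 0 of 7 members and 880 of 13352 genes had a p under 0.05. With DESeq2 the calls were 0 members and 13 genes.

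At high flow, control libraries 4 and 5 had 272 and 8.04 FPKM of Fabp4, 6.86 and 1.23 of Cd36, 7.56 and 0.182 of Lpl and 9.24 and 4.53 of Acsl1. Library 5 was low in all 4 genes, and its adipocyte sum was 7.29 CPM, with Adipoq, Plin1 and Cidec at 0, against 220 CPM in library 4. The EC-KO libraries had 451 and 314 FPKM of Fabp4, 7.15 and 9.89 of Cd36, 12.6 and 7.97 of Lpl and 10.2 and 10.9 of Acsl1, with adipocyte sums of 403 and 272 CPM. For Fabp4, Cd36, Lpl and Acsl1 both EC-KO libraries were above both controls, and the adjusted p was 1 for each of the 7 members by edgeR. Fabp5 had 30.7 and 32.4 FPKM in control and 37.5 and 26.5 in EC-KO. EdgeR called 1 gene, or 0.00749%, in this comparison, which was no member, while before adjustment 0 members and 293 genes had a p under 0.05. DESeq2 made 26 calls, 0 of them members. Between low and high flow at 7 d, 2.40% of genes were called in control and 1.09% in EC-KO, and 0 of 7 members in each. Before adjustment 3332 of 13352 genes in control and 2099 in EC-KO were under 0.05, with 0 and 1 members. That 1 member was Fabp4 in EC-KO, with a log2 fold-change of -3.08 (SE 1.33, adjusted p = 0.304 by edgeR) and every high-flow library above every low-flow library. It was called with the 2 groups fitted alone (adjusted p = 0.0282 by edgeR) and with the replicate block (-4.22, adjusted p = 0.034 by edgeR), and the adipocyte sums did not overlap either (21.3 to 178 CPM at low flow, 272 to 403 at high flow). Over 12 alternatives the Fabp4 value ran from -4.22 to -0.74, and from -4.10 to -2.71 with 1 library left out. Fabp5 was not higher at low flow at 7 d. Its log2 fold-change was -0.19 in control (SE 0.67) and -0.96 in EC-KO (SE 0.67), where both high-flow libraries were above all low-flow libraries. The interaction of flow and genotype, the test of whether the flow difference differs between EC-KO and control, called 0% of genes with edgeR. Before adjustment 0 of 7 members and 538 genes were under 0.05, and 11 genes but 0 members were called with DESeq2. The Fabp4 interaction was -2.26 with a 95% interval of -5.93 to 1.42. Meox2 had no count in the high-flow controls and was at 0.517 and 0.227 FPKM in high-flow EC-KO, Gpihbp1 was at 0 to 2.36 FPKM over the 10 libraries, and Tcf15 had at most 10 counts and was removed by the filter. Over the 7 members, the median log2 fold-change was 1.11 for EC-KO at low flow, 1.37 for EC-KO at high flow, and 0.49 and -0.01 for flow in control and EC-KO, beside medians within 0.04 of 0 over all genes.

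In culture each condition had 1 library, so values are given with exact 95% Poisson intervals of the counts and no test. Fabp5 was the highest member in all 7 libraries. It was at 168 FPKM in primary eGFP+ cells (interval 155 to 181), 107 in Rbfox2 control cells (101 to 113) and 80.7 in EC-KO cells (74.6 to 87.3), and at 157 in the untreated line (150 to 165). In the line plasma went with 366 FPKM (355 to 378), platelets plus macrophages with 51.3 (47.2 to 55.7) and the mixture of all 3 with 125 (119 to 132). Fabp4 was at 14.1 FPKM in the untreated line (11.5 to 17.1), 10.7 with platelets and macrophages (8.44 to 13.5), 153 with plasma (144 to 163) and 116 with plasma, platelets and macrophages (109 to 124). Both libraries with plasma were above both without, beyond the counting intervals. Primary cells had 50.4 (eGFP+), 4.28 (control) and 9.11 FPKM (EC-KO). Summed adipocyte markers were at most 30 CPM in every culture, and Adipoq was at 0 in the untreated line and present with plasma. Lpl was at 11.9 FPKM in the untreated line, 14 after plasma, 21.1 after platelets plus macrophages and 5.23 after the mixture of all 3, but only at 0.0513, 0.616 and 0.0258 in the eGFP+, control and EC-KO primary cells, where the first and last rest on 1 count each. Macrophage markers summed to 432 CPM with platelets and macrophages to 322 with the mixture of all 3, where Lpl was lowest, to 87.3 with plasma and to 61.6 in the untreated line, and their part in the Lpl level was not tested. Cd36 was at 2.05 FPKM in the untreated line, 4.24 after plasma, 1.39 after platelets plus macrophages and 1.08 after the mixture. In primary cells it had 3.22 FPKM in the Rbfox2 control (156 counts), 1 count in the eGFP+ cells and none in EC-KO cells, where 3 counts would be 0.0908 FPKM. The 2 Rbfox2 cultures, 1 library each, thus differed beyond counting error, with intervals of 2.74 to 3.77 and 0 to 0.112 FPKM. Macrophage markers also differed between them, with 497 CPM and 11 of 14 detected in the control and 173 CPM and 5 of 14 in EC-KO, where Emr1, Csf1r and C1qa were at 0. The study's methods sorted cultured aortic cells on Cd31 and Icam2, endothelial surface markers, before RNA was taken. The part of macrophage RNA in Cd36 was not tested. Acsl1 was detected in all 7 cultures at 1.5 to 9.41 FPKM. Gpihbp1 and Meox2 had no count in any culture, with intervals that reach 1.13 and 0.335 FPKM in the shallowest library, and Tcf15 had at most 3 counts. Of the 56 values of the 8 members in culture, 30 were at least 1 FPKM.

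**Figure D4:**
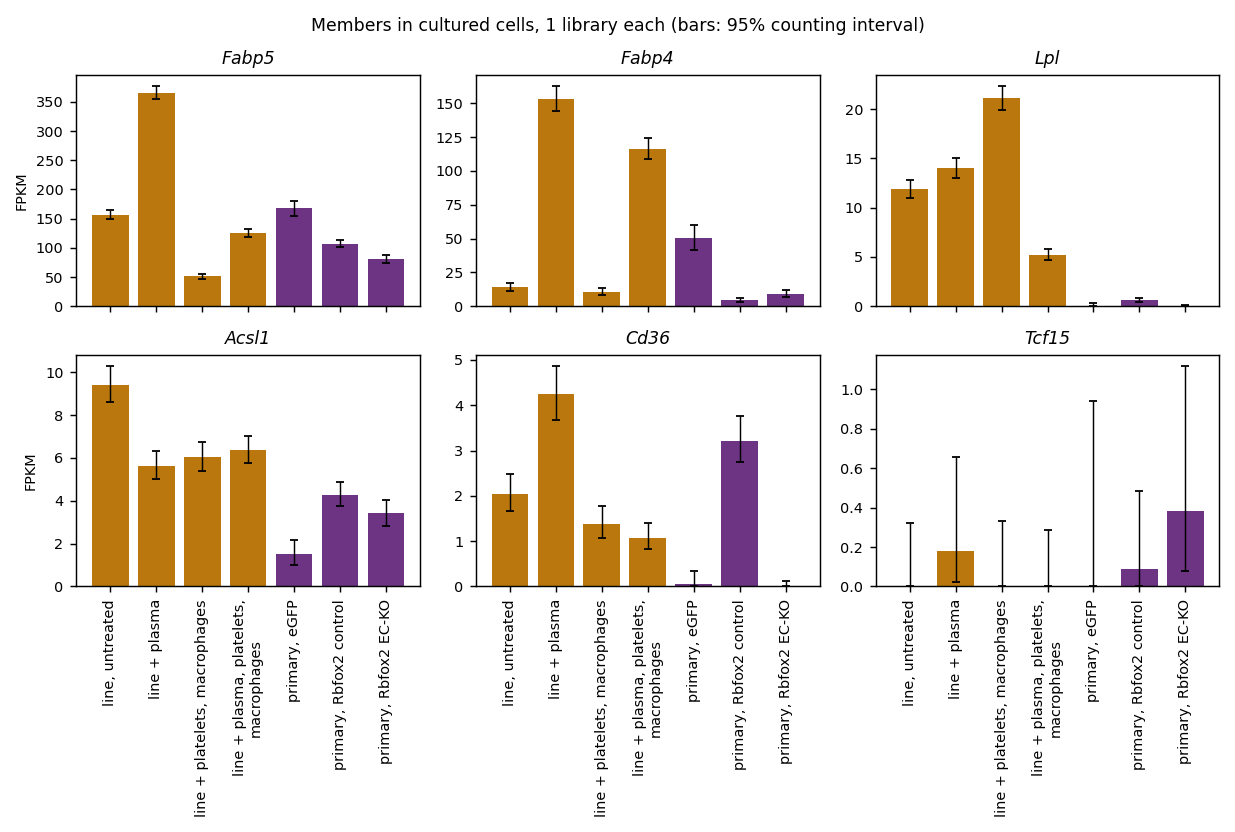
FPKM of 6 members in the 4 libraries of the aortic endothelial line (brown) and the 3 primary cultures (purple), with exact 95% Poisson intervals of the counts. Fabp4 is at 153 and 116 FPKM in the line with plasma and at 14.1 and 10.7 without, and Lpl is at 0.616 FPKM or less in primary cells.

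The members act beside other genes of lipid handling, which were counted by list. For low against high flow in untreated mice, none of the genes for triglyceride storage and lipolysis was called higher and 9 of 11 tested were lower, and the list's median was -0.96 on the log2 scale, beside -0.07 over all genes, of which 23.6% were higher and 22.6% lower. Mgll, the monoglyceride lipase that ends triglyceride breakdown, was at 0.163, 0.499 and 2.04 FPKM at low flow and at 28.8, 23.5 and 25.9 at high flow, for a log2 fold-change of -4.34 (SE 0.39, adjusted p = 1.20e-05 by edgeR). Of the regulators of lipid uptake 0 were higher and 7 of 9 lower (median -0.70), among them Pparg, whose low-flow level was 0.31 ± 0.0863 FPKM against 8.44 ± 9.28 on the high-flow side (SD, n = 3 each) (log2 fold-change -4.06, SE 0.95, adjusted p = 0.00549 by edgeR). With the adipocyte covariate Pparg turned to 2.72. Against sham arteries, a comparison that uses the same low-flow libraries, 2 of 11 storage genes (median -0.39) and 3 of 8 regulators (median -0.65) were lower and none higher, beside 40.3% of all genes called. At high flow against sham no gene of either list was called, and the medians were 0.74 for storage and 0.10 for regulators. Of the genes of fatty acid oxidation 0 were higher and 7 of 17 lower (median -0.64), with Acaa2 at -1.70 and Acadm at -1.52. Acyl-CoA synthetases and thioesterases had 1 higher and 3 lower of 8 (median -0.73), and the other genes of uptake and binding 2 higher and 1 lower of 8 (median 0.49). That 1 was Fabp3, the binding protein of heart and muscle, whose low-flow level was 0.82 ± 0.519 FPKM against 56.8 ± 53.1 on the high-flow side (SD, n = 3 each). With acyl-CoA genes at 4 of 8 and oxidation at 7 of 17, several lists were near the 46.2% of all genes called. Scaled on endothelial markers, which moved the median of all genes to 0.34, the genes lower numbered 5 for storage, 2 for regulators and 4 for oxidation. On library totals, which moved it to -0.69, 14 of the 17 oxidation genes were lower. With the adipocyte covariate none of these 17 and only 1 of the 11 storage genes were lower, with 2 storage genes higher and 175 of 11236 genes called in all. The covariate also left 0 of 9 regulators (median -0.11) and 0 of 8 uptake and binding genes called. Of 8 acyl-CoA genes it left 1 higher and 0 lower.

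Among the partners of lipoprotein lipase, 2 of 9 were higher and 1 was lower (median -0.32). Angptl4, a secreted inhibitor of lipoprotein lipase, rose from 0.668, 1.49 and 6.39 FPKM at high flow to 27.5, 81.3 and 44.6 at low flow, a log2 fold-change of 5.01 (SE 0.70, adjusted p = 2.29e-04 by edgeR). Apoc2, the apolipoprotein that activates the enzyme and that macrophages also make, had 9.66, 18.5 and 24.9 FPKM at low flow and 0.482, 0.337 and 4.52 at high flow (log2 fold-change 3.99, SE 0.62, adjusted p = 4.47e-04 by edgeR). Pcsk5, a protease that can cleave lipases, was lower at -2.01 (SE 0.38, adjusted p = 0.00158 by edgeR). These 3 were called in the same direction with IgG (7.45, 6.38 and -2.07) and with PBS liposomes (4.48, 5.02 and -2.49), and kept their direction under all 13 alternatives of the untreated comparison. Angptl4 and Apoc2 were called in all of these alternatives, while Pcsk5 lost its call with the adipocyte covariate (-0.93, adjusted p = 0.732 by edgeR) and, with IgG, on endothelial scaling (-0.40, adjusted p = 0.179 by edgeR). At 7 d Angptl4 had 16.1, 149 and 87.6 FPKM at low flow in control libraries 1, 4 and 5 and 4.33 and 8.9 at high flow (log2 fold-change 3.59, adjusted p = 0.0776 by edgeR). After platelet depletion it was at 5.19 and 9.5 FPKM against 83.8 and 106 with IgG (log2 fold-change -3.72, SE 0.72, adjusted p = 0.021 by edgeR), and Apoc2 at 0.349 and 0.795 against 13.7 and 16.7 (log2 fold-change -4.72, SE 0.83, adjusted p = 0.0155 by edgeR). Both kept their sign and were called in 7 of 12 alternatives. Of 14 macrophage markers 8 were lower in the same comparison, and their part in these 2 genes was not tested. After clodronate, against PBS liposomes, the mean of Apoc2 was 0.691 against 11.5 FPKM (log2 fold-change -4.14, SE 0.81, adjusted p = 0.081 by edgeR) and that of Angptl4 was 45 against 185 FPKM (log2 fold-change -2.13, SE 0.67, adjusted p = 0.23 by edgeR), and neither passed the test.

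Of the lipoprotein receptors 3 of 6 were higher and 2 lower (median 0.68). Scarb1, the receptor for high-density lipoprotein, was at 11.1, 16.7 and 23.5 FPKM at low flow and 6.88, 7.11 and 5.43 at high flow (log2 fold-change 2.06, SE 0.23, adjusted p = 4.55e-05 by edgeR). Lsr, a lipolysis-stimulated lipoprotein receptor, was at 5.71, 7.09 and 19.9 against 45.1, 83.0 and 60.2 FPKM (log2 fold-change -1.98, SE 0.26, adjusted p = 1.66e-04 by edgeR). Lsr was the gene of these lists that was called in all 5 flow comparisons, at -1.98 with IgG, -2.27 with PBS liposomes, -1.98 in control and -1.66 in EC-KO at 7 d. Its call was lost in untreated mice with the adipocyte covariate (-1.19, adjusted p = 0.52 by edgeR) and with IgG on endothelial scaling (-0.33, adjusted p = 0.424 by edgeR). At 7 d it was lost in EC-KO without any 1 of the 5 libraries (-1.83 to -1.54), on endothelial scaling (-0.76) and with the adipocyte covariate (-1.35). In control it was lost without any 1 library other than low-flow library 1 (-2.07 to -1.83) and with the 2 groups fitted alone (-1.98). Olr1, the receptor for oxidized low-density lipoprotein, had no count at high flow with IgG or in 7 d controls. There its mean was at least 17.5-fold and at least 13.8-fold higher at low flow when 3 counts per library are taken as the floor. In 7 d EC-KO it was also called higher (7.91, adjusted p = 0.0249 by edgeR). With PBS liposomes it was not called (2.44, SE 1.12, adjusted p = 0.114 by edgeR). In untreated mice low flow (0.387, 0.329 and 1.18 FPKM) and high flow (0.206, 0.719 and 0.129) overlapped. With IgG the lists of uptake, lipase partners, receptors, acyl-CoA genes, oxidation, storage and regulators had 2 of 9, 6 of 11, 4 of 8, 2 of 9, 1 of 18, 4 of 12 and 5 of 13 genes called in either direction, beside 40.5% of all genes. With PBS liposomes the numbers were 1, 5, 3, 5, 2, 3 and 2 of the same genes tested, beside 35.0%. Scaling on endothelial markers moved the median of all genes to 1.75 with IgG and 1.19 with PBS liposomes. With IgG the genes called higher were then 6, 6, 5, 7, 16, 7 and 3 in the same order of lists, with 1 storage gene lower. With PBS liposomes 11 of 18 oxidation genes were then higher and 1 lower.

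**Figure D5:**
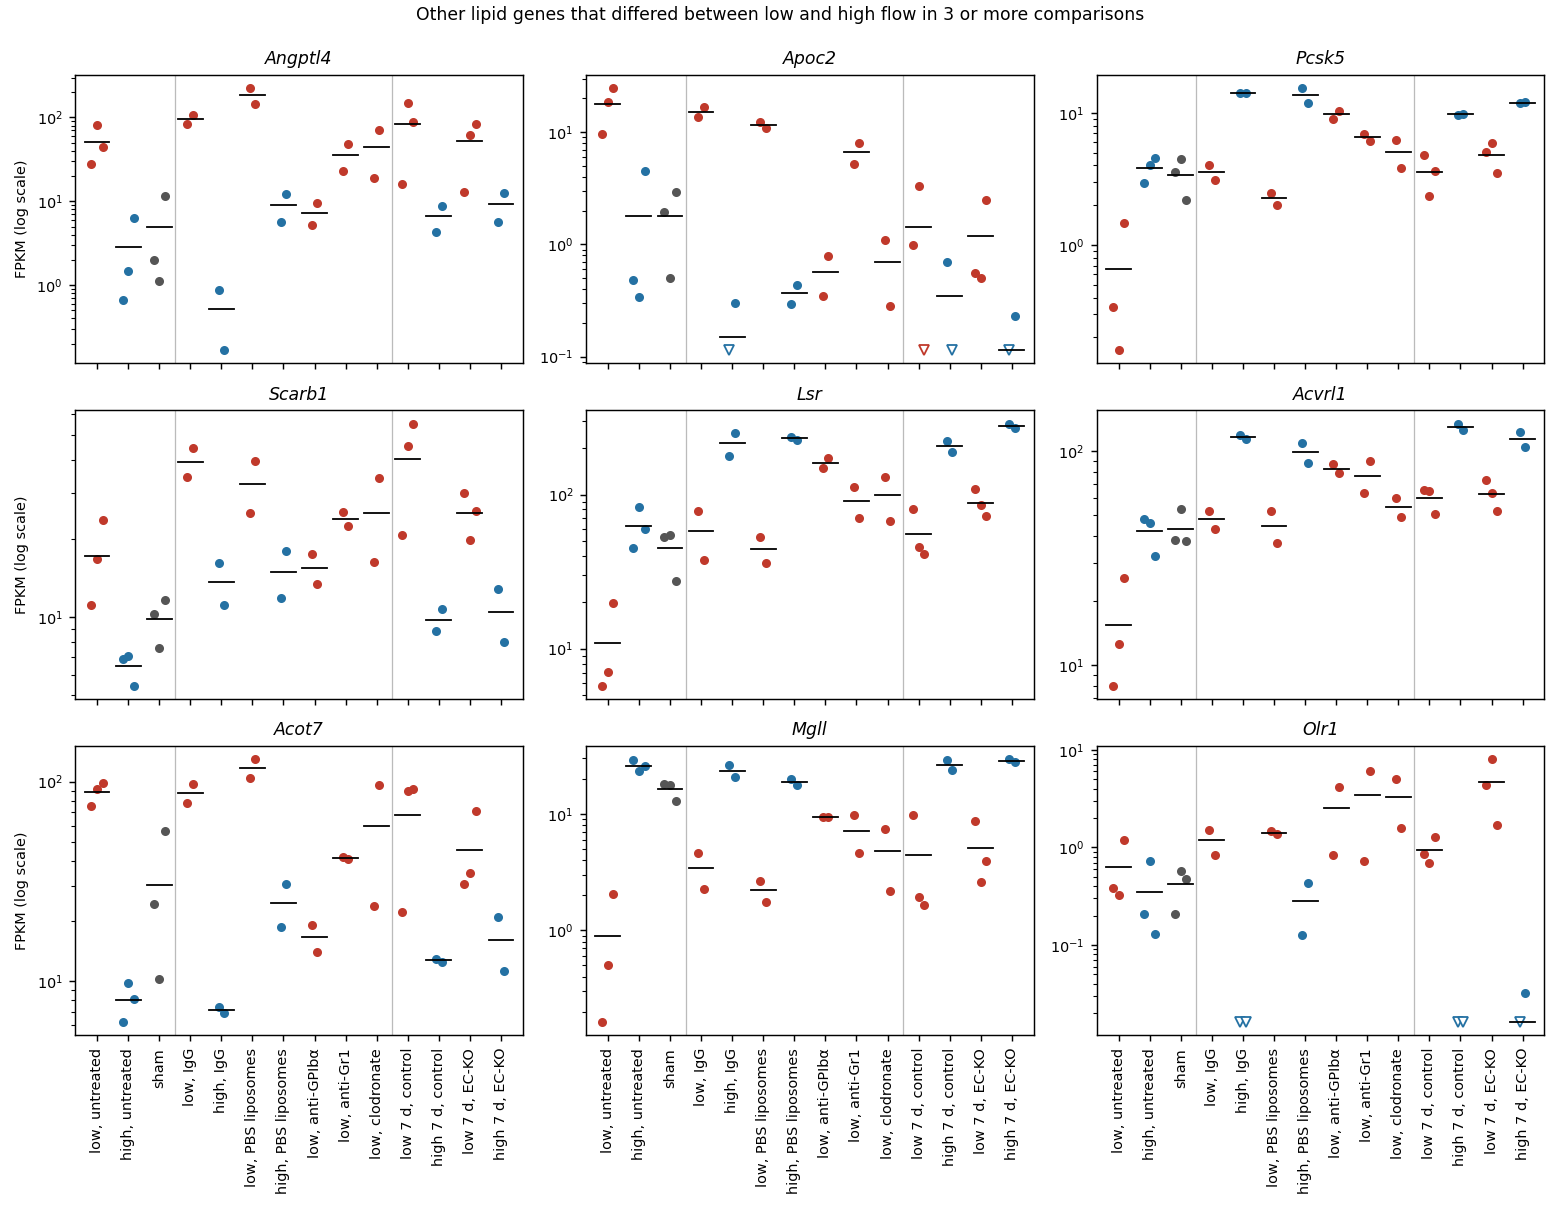
FPKM (log scale) of 9 other lipid genes named in 3 or more of the 5 flow comparisons, by group, with red for low flow, blue for high flow and grey for sham. Lines are group means and open triangles libraries without a count. In each of the 5 flow comparisons the mean of Angptl4 and of Acot7 is higher in the low-flow group than in its high-flow partner, and that of Lsr and of Mgll is lower.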

How the data were processed

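Expected counts per gene, estimated and deposited by the authors (RSEM 1.2.15 and STAR 2.5.1b in the submitters' processing notes), were used on mm9. For the untreated pools the study names both TopHat and STAR, and which of them lies behind these counts is unclear. Of 21675 rows, 1 without a gene name was left out, and of 204 value columns 155 were not used, since they match no sample or repeat a run. Counts were rounded, filtered by filterByExpr, scaled by TMM and tested with edgeR 4.0.16 in R 4.3.3 (quasi-likelihood, Benjamini-Hochberg over all genes tested, threshold 0.05). Untreated groups were fitted in pairs, and the depletion groups and the 7 d groups together. DESeq2 1.42.0 was an alternative. The code was tested on simulated data. FPKM used the deposited effective gene length, in bases per gene, and the library total; a pseudocount of 1 was added for correlations. The RPKM that the authors deposited for the cultures served as a check, with a median ratio of FPKM to RPKM of 0.93 to 1.03.

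The 8 genes were named in every comparison. From each list of lipid genes up to 3 genes in each direction qualified, those with the largest change among called genes whose groups did not overlap, and for each member the 3 genes most correlated with it. Members and lists were chosen with earlier results of these data known. For the 7 d low-flow libraries of EC-KO and control, deviations from the group means correlated in all 3 pairs of the same number (r 0.205 to 0.552). No label used here states that the numbers 1, 4 and 5 are pairs, and the main fit did not use them. The replicate block changed no member's call there.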

Additional observations from a re-analysis of the deposited data

Results flagged for a closer look

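Fabp5 lay on opposite sides in 2 sets of libraries. Every low-flow library was above every high-flow library at 48 hr, with log2 fold-changes of 1.29 in untreated mice, 1.45 with IgG and 1.89 with PBS liposomes, and every low-flow library was below every high-flow library in Rbfox2 EC-KO at 7 d (-0.96, adjusted p = 0.516 by edgeR, not called), while the groups overlapped in 7 d controls (-0.19). The difference between these effects was not tested.

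Meox2 was above both high-flow libraries in both low-flow libraries with IgG (fitted log2 fold-change 7.01, against libraries without a count) and below them with PBS liposomes (-1.18). The difference was not tested, and no library here had more than 25 counts.

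Tcf15, which the filter on low counts removed, had a low-flow mean of 0.354 FPKM in EC-KO at 7 d, with all low-flow libraries above both high-flow libraries, and a low-flow mean of 0.0386 FPKM with IgG, with both below. In EC-KO these are 4, 5 and 3 counts at low flow against 1 and 3 at high flow. With IgG they are 1 and 0 counts against 4 and 2, so both orders rest on values near the floor of 3 counts. The difference was not tested. Groups of 2 or 3 libraries were too small for a check of single outlying libraries.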

How the results depend on the processing

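Of 1123 alternative values for 88 member results, 942 kept their direction and side of the threshold, 26 lost and 26 gained the call and 129 changed sign, 65 of these with 1 library left out, 34 with the adipocyte covariate and 21 with endothelial scaling; 4 of the 129 were called in either fit. The cause was not tested.

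The number of members called for low against high flow in untreated mice (4) was 2 to 6 with 1 library left out and 1 with the adipocyte covariate, which, with library totals, was chosen after seeing the data. For low flow against sham (1) it was 0 to 4 with 1 library left out, 2 with DESeq2, 3 with endothelial scaling, 2 without the filter and 0 with the covariate. For high flow against sham (0) it was 2 without the filter. For platelet depletion (0) it was 1 with DESeq2, endothelial scaling, no filter, the replicate block or the 2 groups alone, and for granulocyte depletion (0) 1 with DESeq2. For flow with IgG (2) it was 0 to 1 with 1 library left out, 0 with the covariate and 3 with endothelial scaling. For flow with PBS liposomes (1) it was 0 to 1 with 1 library left out, 3 with the 2 groups alone and 0 with the covariate. For flow at 7 d it was 1 in control (0) with endothelial scaling or the covariate, and 1 in EC-KO (0) with the replicate block or the 2 groups alone.

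With the covariate, low against high flow in untreated mice turned to 1.84 for Fabp4, 4.27 for Cd36, 5.01 for Lpl, 3.64 for Acsl1 and 4.02 for Meox2, and high flow against sham to -0.09 for Fabp4, -0.56 for Cd36, -0.13 for Lpl and -0.13 for Acsl1. With endothelial scaling Meox2 turned to 0.09 in untreated mice and Acsl1 to 0.21 with PBS liposomes. With 1 library left out, Meox2 in untreated mice was -1.44 to 0.06.

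All genes called numbered 5195 (175 to 5682 over the alternatives) for untreated low against high flow, 4499 (2157 to 4868) for low flow against sham, 0 (0 to 91) for high flow against sham, 2216 (1 to 6196) for platelets, 0 (0 to 225) for granulocytes, 16 (0 to 937) for macrophages, 5422 (2141 to 9566) and 4692 (1482 to 7188) for flow with IgG and PBS liposomes, 0 (0 to 1476) and 1 (0 to 26) for EC-KO at low and high flow, 320 (3 to 7130) and 146 (1 to 1317) for flow at 7 d in control and EC-KO, and 0 (0 to 11) for the interaction.

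Libraries that differ in treatment or genotype came from different mice. For low and high flow, no source used here says whether libraries of the same number came from the same mice, although high-flow arteries were the other carotid of ligated mice. Deviations correlated at -0.0185 for platelets, 0.107 for granulocytes, 0.523 for macrophages and for flow with PBS liposomes, 0.0198 for flow with IgG, 0.315 for EC-KO at high flow, and -0.0536 to 0.268 for flow at 7 d. The replicate block changed no member's call beyond those given, and moved the genes called for flow at 7 d to 2940 in control and 1317 in EC-KO. No paired analysis was possible for the untreated libraries because their columns carry no numbers. The planned use of a second sequencing run, alone or summed, was not run, since those columns could not be matched to samples. Depth limited Gpihbp1, Meox2 and Tcf15.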
